A study of Mus musculus with 42 samples.

Results

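The 9 genes described here act in Wnt signalling and were taken by symbol: the ligands Wnt3, Wnt5a and Wnt5b, the receptors Ror1 and Ror2, the transcription factors Sp5 and Lef1, and the inhibitors Axin2 and Dkk1. All 9 were among the 12988 genes of the expression table, and all 9 were tested. Of the 141251 tiles of 100 bp in the methylation table, 167 lay within these genes or 2 kb on either side. The genes were chosen with earlier results on their expression in these libraries known. Their expression is therefore given as a description. Where the 9 are counted by a limma p in expression, the count rests on values known at the choice and tests nothing. Their methylation is given with a test.

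Sires were C57BL/6 males that received vehicle, 2.5 mg/kg/day (low) or 25 mg/kg/day (high) of di(2-ethylhexyl) phthalate (DEHP), a plasticizer, for 67 days from 8 weeks of age. They were mated with unexposed females, and the question was whether the exposure of the father is seen in the methylation and expression of offspring at embryonic day 7.5, during gastrulation. The offspring are labelled as wild type, male, C57BL/6 * DBA/2J. The labels describe 42 samples, made up of 12 sperm, 9 embryonic and 9 extraembryonic samples for RRBS (reduced representation bisulfite sequencing, a measure of DNA methylation in CG-rich fragments) and 6 embryonic and 6 extraembryonic samples for RNA sequencing. The expression table has 6 libraries, with 2 per paternal group, and the methylation table has 9, with 3 per group. Their headings name a treatment and a library number without a tissue, so the tissue of the libraries, and the litters behind them, are not known here. Libraries of 1 table cannot be matched to those of the other.

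Wnt ligands are secreted proteins that bind Frizzled receptors. With the coreceptors Lrp5 and Lrp6 they stabilise beta-catenin, which then acts on target genes together with DNA-binding partners of the TCF/LEF family. In a second branch, which does not need beta-catenin, ligands such as Wnt5a signal through the receptor tyrosine kinases Ror1 and Ror2 and act on cell polarity and movement. In the gastrulating mouse embryo, Wnt3 is required for the primitive streak to form, Wnt3a and Wnt5a act in the streak and tail, and Dkk1 limits the signal at the anterior side.

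The promoters of 4 of the genes are printed here because they differ in a sequence that TCF/LEF factors are known to bind. In expression, each of the 4 had more comparisons without overlap of the libraries than any other gene taken by symbol. Their differences were not all the largest. For high minus low, that of Dkk1 was -0.24 in log2(CPM + 1), beside 0.33 for Axin2, whose promoter is not printed. Sequences are from RefSeq on GRCm38.p6, from 250 bases before to 50 after the start site, and capitals mark each match to CTTTGAA or CTTTGAT or CTTTGTA or CTTTGTT on either strand. Sp5 lies at chr2:70474673-70474972 on the plus strand, Dkk1 at chr19:30549447-30549746 on the minus strand, Wnt3 at chr11:103773925-103774224 on the plus strand and Ror1 at chr4:100095541-100095840 on the plus strand.
Sp5: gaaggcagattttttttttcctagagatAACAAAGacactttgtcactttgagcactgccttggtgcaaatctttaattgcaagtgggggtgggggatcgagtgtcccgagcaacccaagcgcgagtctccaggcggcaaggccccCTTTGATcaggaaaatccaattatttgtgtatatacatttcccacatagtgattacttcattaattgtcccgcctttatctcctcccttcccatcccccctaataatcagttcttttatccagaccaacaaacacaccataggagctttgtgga
Dkk1: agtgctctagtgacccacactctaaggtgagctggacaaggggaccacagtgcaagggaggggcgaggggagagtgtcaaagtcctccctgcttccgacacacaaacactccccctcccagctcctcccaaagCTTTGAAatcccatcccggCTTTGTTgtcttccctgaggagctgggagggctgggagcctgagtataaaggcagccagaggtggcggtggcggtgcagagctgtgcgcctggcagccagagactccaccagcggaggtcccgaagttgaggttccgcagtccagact
Wnt3: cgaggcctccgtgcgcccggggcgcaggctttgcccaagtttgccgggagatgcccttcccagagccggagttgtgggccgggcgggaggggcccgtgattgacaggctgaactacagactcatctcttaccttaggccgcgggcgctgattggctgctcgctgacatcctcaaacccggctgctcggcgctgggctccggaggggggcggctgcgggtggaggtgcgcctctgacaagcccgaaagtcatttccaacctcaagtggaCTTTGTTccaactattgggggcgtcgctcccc
Ror1: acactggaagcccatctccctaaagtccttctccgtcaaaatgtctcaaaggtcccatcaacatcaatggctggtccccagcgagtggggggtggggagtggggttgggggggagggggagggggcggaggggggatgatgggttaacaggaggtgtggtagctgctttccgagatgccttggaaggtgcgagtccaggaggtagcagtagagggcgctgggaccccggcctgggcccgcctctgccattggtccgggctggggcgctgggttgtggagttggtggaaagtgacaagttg

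The Sp5 window held 2 matches, whose first bases as read lay at -222 and -104 from the start site, and the Dkk1 window held 2, at -117 and -98. The Wnt3 window held 1 match at 18, just past its start site, and the Ror1 window held none. Of all 32851 promoter windows in the table, 16.9% held at least 1 match and 1.9% held 2 or more. The 8 genes with an entry had 13 windows in all, of which 5 held a match. The other 2 were internal start sites of Lef1, with a match at -147, and of Wnt5b, with a match at -71. The windows of Axin2 and Ror2 held none, and a match or its absence says only which letters stand in these windows.

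The relative depth of the 6 RNA libraries, counted in steps of the deposited scale in units of 1000000, was 185 to 194 in the control and low groups and 153 and 161 in the high group. Markers of several cell types of this stage were measured. All 7 epiblast markers were measured, with Pou5f1 at 357 to 541 CPM, and so were all 10 visceral endoderm markers. Of 11 extraembryonic ectoderm and trophoblast markers 8 were measured, and the defining markers Elf5, Tpbpa and Gcm1 have no value here. The summed levels of the epiblast and streak markers were lowest in the high group, and those of the low group overlapped the controls. The epiblast markers summed to 1900 and 2302 CPM in the control libraries, 2543 and 1951 in the low libraries and 1774 and 1520 in the high libraries. The 9 markers of the primitive streak and nascent mesoderm summed to 671 and 713, 805 and 699.8, and 597 and 498 CPM in the same order. Dnmt3b alone had 940 to 1519 CPM of the epiblast sum, and all epiblast markers but Nanog were lowest in both high libraries. Of the streak markers, Mixl1, Eomes, Lhx1 and Snai1 were lowest in both high libraries, and T, Mesp1, Tbx6, Evx1 and Gsc were not. The 10 visceral endoderm markers ranged from 1146 to 2383 CPM in the controls, 1832 to 2151 in the low group and 1906 to 2560 in the high group. The 7 parietal endoderm markers stood at 1881 CPM in control 1 against 711 in control 2, and at 710 to 756 and 1123 to 1167 CPM in the low and high groups. The 8 extraembryonic ectoderm and trophoblast markers summed to 72.0 to 108, 108.5 to 153, and 108 to 150 CPM. The part of cell composition in the differences described below was not tested, and in such bulk samples fewer cells of a type and less RNA per cell cannot be told apart.

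Among the ligands, Wnt3 was higher in the low group and lower in the high group than in the controls, whereas Wnt5a and Wnt5b overlapped between most groups. Wnt3 (ENSMUSG00000000125, chr11:103774150-103817957), the ligand that starts the streak, had 13.2 and 15.3 CPM in the control libraries, 21.3 and 16.04 in the low libraries and 11.8 and 11.2 in the high libraries. Every low library stood above both controls and every high library below both, though low 2 exceeded control 2 only narrowly. The difference in log2(CPM + 1) was 0.36 (SE 0.14, n = 2 per group) for low minus control, -0.28 (SE 0.14) for high minus control and -0.64 (SE 0.14) for high minus low. Leaving out 1 library at a time, the low minus control difference of Wnt3 ranged from 0.16 to 0.55 and the high minus low difference from -0.83 to -0.44.

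Wnt5a (ENSMUSG00000021994, chr14:28504750-28527448), the main ligand of the polarity branch, had 25.7 and 18.9 CPM in the controls, 24.3 and 26.7 in the low libraries and 24.3 and 28.8 in the high libraries. Control 2 alone lay below the other 5 libraries, and the groups overlapped in all comparisons. The differences were 0.20 and 0.25 against control at the low and high dose (SE 0.15 each), and ranged from -0.02 to 0.41 and from 0.04 to 0.46 when 1 library was left out. Wnt5b (ENSMUSG00000030170, chr6:119432531-119544347), its close relative, had 9.52 and 7.54 CPM in the controls, 7.99 and 9.75 in the low libraries and 9.66 and 10.2 in the high libraries. The high libraries stood above the controls by 0.21 (SE 0.13), with a gap of only 9.52 to 9.66 CPM between the nearest libraries, and they overlapped the low libraries. This difference ranged from 0.06 to 0.36 when 1 library was left out.

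**Figure D1:**
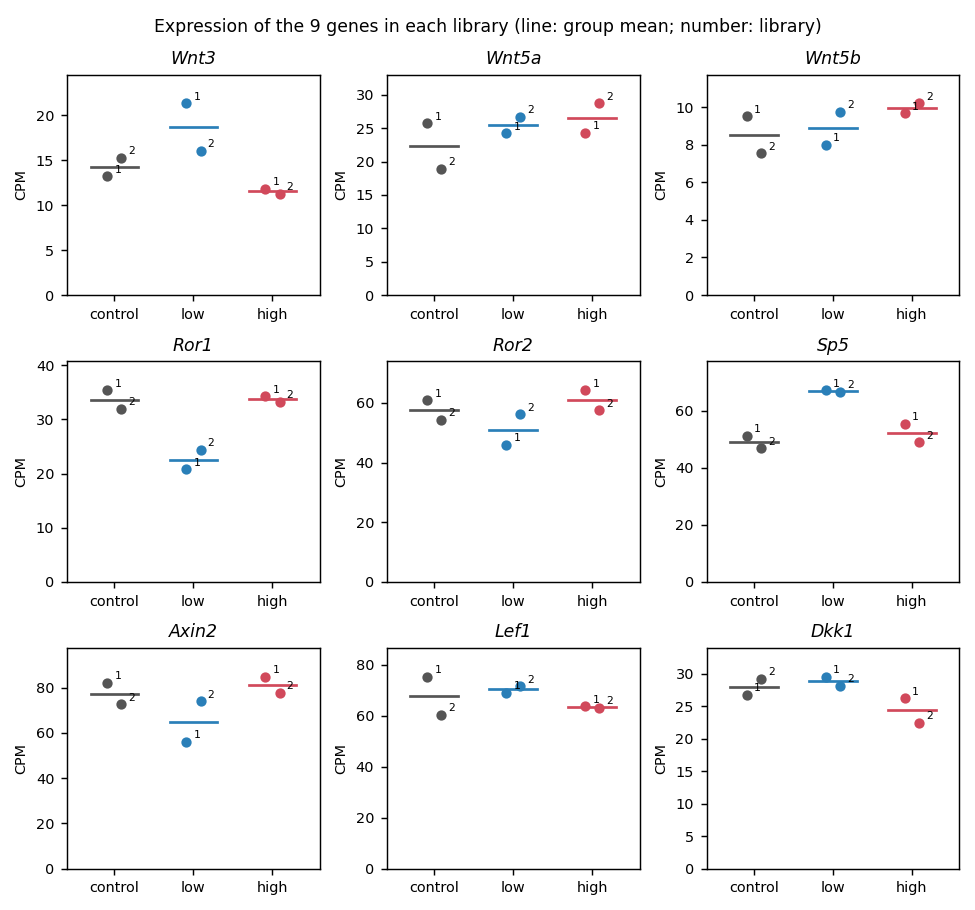
Expression in CPM of the 9 genes (1 panel each, axis from 0) in the 6 RNA libraries, by paternal group; points are libraries, numbers name the library within its group and lines are group means. Both low libraries lie below all others for Ror1, at 20.8 and 24.4 CPM, and above all others for Sp5, at 67.2 and 66.6 CPM.

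The receptor Ror1 was lower in the low group than in both other groups, and Ror2 showed a smaller difference in the same direction. Ror1 (ENSMUSG00000035305, chr4:100095791-100444765), a receptor tyrosine kinase of the Wnt5a branch, had 35.4 and 32.0 CPM in the controls, 20.8 and 24.4 in the low libraries and 34.2 and 33.3 in the high libraries. The low libraries did not overlap either other group, and the high libraries lay between the 2 controls. The difference was -0.56 (SE 0.09) for low minus control, which is 0.679-fold, 0.00 (SE 0.09) for high minus control and 0.56 (SE 0.09) for high minus low. The low minus control difference ranged from -0.67 to -0.45 when 1 library was left out.

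Ror2 (ENSMUSG00000021464, chr13:53109312-53286124), the paralogue that is also a receptor of Wnt5a, had 60.9 and 54.3 CPM in the controls, 45.9 and 56.1 in the low libraries and 64.3 and 57.5 in the high libraries. The low libraries lay below both high libraries but overlapped the controls, because low 2 stood between them. The difference was -0.18 (SE 0.11) for low minus control and 0.26 (SE 0.11) for high minus low. Leaving out 1 library, it ranged from -0.32 to -0.03 and from 0.11 to 0.40.

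Of the targets and inhibitors, Sp5 was higher in the low group than elsewhere, while Axin2, which is also a direct target, was lower in 1 low library only. Sp5 (ENSMUSG00000075304, chr2:70474923-70477729), a zinc finger transcription factor whose gene beta-catenin activates directly, had 51.2 and 46.9 CPM in the controls, 67.2 and 66.6 in the low libraries and 55.4 and 48.9 in the high libraries. Both low libraries stood above all 4 others, and the high libraries overlapped the controls. The difference was 0.44 (SE 0.08) for low minus control, which is 1.36-fold, 0.09 (SE 0.08) for high minus control and -0.36 (SE 0.08) for high minus low. It ranged from 0.38 to 0.50 for low minus control when 1 library was left out.

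Axin2 (ENSMUSG00000000142, chr11:108920349-108950783), a scaffold of the complex that degrades beta-catenin and so a feedback inhibitor, had 82.1 and 72.7 CPM in the controls, 56.0 and 74.0 in the low libraries and 84.7 and 77.7 in the high libraries. Low 1 stood apart from the other 5 libraries, and low 2 lay between the controls. The difference was -0.26 (SE 0.13) for low minus control, ranging from -0.46 to -0.06 when 1 library was left out, and 0.33 (SE 0.13) for high minus low, ranging from 0.13 to 0.53.

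Lef1 (ENSMUSG00000027985, chr3:131110471-131224356), a DNA-binding partner of beta-catenin, had 75.2 and 60.2 CPM in the controls, 69.1 and 71.5 in the low libraries and 63.7 and 63.0 in the high libraries. All 4 libraries from exposed sires lay between the controls, and the high libraries lay below the low ones, with a difference of -0.15 (SE 0.10). Dkk1 (ENSMUSG00000024868, chr19:30545863-30549665), a secreted inhibitor that binds Lrp5 and Lrp6, had 26.8 and 29.2 CPM in the controls, 29.5 and 28.2 in the low libraries and 26.2 and 22.5 in the high libraries. Both high libraries lay below all others, by -0.20 (SE 0.09) against control and -0.24 (SE 0.09) against low, and the nearest libraries were 26.2 and 26.8 CPM. Leaving out 1 library moved these differences between -0.30 and -0.09 and between -0.35 and -0.13.

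**Figure D2:**
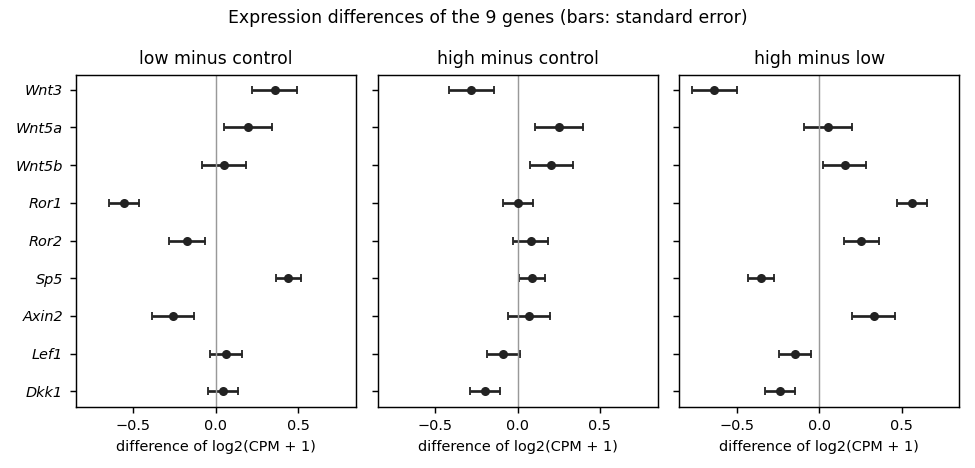
Differences in log2(CPM + 1) of the 9 genes between paternal groups, 1 panel per comparison; points are the fitted differences and bars are 1 standard error (2 libraries per group). Ror1 lies at -0.56 in low minus control and 0.56 in high minus low, and Wnt3 at -0.64 in high minus low.

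Counted over the 9 genes, the low libraries did not overlap the controls for 2 higher genes, Sp5 and Wnt3, and 1 lower gene, Ror1, where 18.0% and 17.2% of all genes did so in these directions. For high against control, 1 gene was higher without overlap, Wnt5b, and 2 were lower, Wnt3 and Dkk1, beside 23.5% and 12.1% of all genes. For high against low, Ror1, Ror2 and Axin2 were higher and Sp5, Wnt3, Lef1 and Dkk1 lower, beside 21.8% and 11.8%. With limma and Benjamini-Hochberg adjustment over all genes, 0 of the 9 were past an adjusted p of 0.05 in any comparison. Of all 12987 genes 0.0% were past it for low against control, 0.0077% for high against control and 0.0% for high against low. At an unadjusted p under 0.05, 3 of the 9 stood for low against control, 0 for high against control and 6 for high against low, beside 4.87%, 5.29% and 7.91% of all genes. The choice of these genes rested on the same contrasts, and the 3 comparisons share their libraries. These counts, with or without a p, are therefore no test of the 9 genes and no independent evidence.

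Low 1 was the lowest of all 6 libraries for Ror1, Ror2 and Axin2 and the highest for Wnt3, Sp5 and Dkk1, although for Sp5 low 2 was nearly equal to it, and for Wnt5a, Wnt5b and Lef1 it was neither. It also had the highest epiblast and streak marker sums. Its sum of extraembryonic ectoderm and trophoblast markers was the highest too, at 153 CPM against 108.5 in low 2 and 150 in high 2. Its sum of extraembryonic mesoderm and allantois markers was the lowest, at 120 CPM against 181 in low 2. Leaving out low 2 changed calls: the limma fit over all genes then put Ror1 past the adjusted threshold for low against control, and Ror1, Wnt3 and Axin2 for high against low. Without low 1, or with any other library left out, 0 of the 9 were past it in any comparison. These calls rest on the values with which the genes were chosen and support nothing about them. With low 2 left out, low 1 is a lone sample that is assumed to vary like the other groups.

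The genes whose profile over the 6 libraries was most like that of Wnt3, Ror1 and Axin2, the 3 of the 9 with the widest range, were found by the root mean square difference of centred log2(CPM + 1) values. For Ror1, whose range was 0.74 on this scale, they included Ntrk3 (0.060) and Rtl8a (0.061). Ntrk3, a neurotrophin receptor gene, had 2.74 and 2.45 CPM in the controls, 1.54 and 1.84 in the low libraries and 2.88 and 2.73 in the high libraries. For Axin2, with a range of 0.59, they were Gprc5c (0.033), Thsd7a (0.042) and Gdf10 (0.044). Gprc5c had 76.4 and 65.0 CPM in the controls, 50.5 and 63.9 in the low libraries and 77.6 and 70.6 in the high libraries. For Wnt3, with a range of 0.87, they were Trim36 (0.074), Socs2 (0.076) and Tmem154 (0.079). With 6 libraries, such likeness is a description of these profiles.

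The rest of the pathway was read through 9 lists of genes, of which 87 genes other than the 9 were measured. In the comparison of high with low, these 87 genes lay on both sides, and the widest differences were among direct targets, ligands and receptors. For high against low, 53 of the 87 were higher and 34 lower, and 0 passed the adjusted threshold (lowest adjusted p = 0.131, limma). At an unadjusted p under 0.05 there were 32 of 87 (36.8%), with 21 higher and 11 lower, beside 7.91% of all genes. This count was 17 without low 1, 15 without high 2 and 40 without low 2, beside 3.41%, 4.2% and 12.3% of all genes. For low against control 25 were higher and 62 lower, with 12 at an unadjusted p under 0.05 (13.8%, beside 4.87% of all genes). This count was smaller without low 1 and larger without low 2. For high against control 47 were higher and 40 lower, with 10 (11.5%, beside 5.29%), and this count also moved with the library left out. The median difference was -0.08, 0.00 and 0.05 for low against control, high against control and high against low, beside 0.00, 0.02 and 0.01 over all genes. The epiblast and streak marker sums given above also separated high from low, and their part in these counts was not tested. The lists were chosen with earlier results of these data known, so these counts and those of single lists below are no independent evidence.

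Of the 6 other ligands measured, 4 were higher and 2 lower in high than in low. Wnt8a, a ligand of the posterior epiblast, had 24.8 and 20.8 CPM in the controls, 15.4 and 20.2 in the low libraries and 29.1 and 29.9 in the high libraries, a difference of 0.71 for high minus low (SE 0.13, limma adjusted p = 0.256). Wnt3a, which maintains the streak and tail bud, had 16.5 and 9.77 CPM in the controls, 6.46 and 10.7 in the low libraries and 15.1 and 14.3 in the high libraries, a difference of 0.75 (SE 0.26, adjusted p = 0.488). Wnt2b ran the other way, with 36.3 and 33.1 CPM in the controls, 39.3 and 38.3 in the low libraries and 29.9 and 26.9 in the high libraries, a difference of -0.44 (SE 0.08, adjusted p = 0.233). Wnt3 and Wnt3a, ligands that both act through beta-catenin, therefore lay on opposite sides, with Wnt3 lower and Wnt3a higher in high than in low.

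The R-spondin genes raise the sensitivity to Wnt by binding Lgr receptors and removing the ligases Rnf43 and Znrf3, which take Frizzled receptors off the surface. The list thus holds genes that raise the signal and ligases that lower it. All 6 measured genes of the list were higher in high than in low without overlap of the libraries, beside 21.8% of all genes, with a median of 0.28. In low against control 0 were higher and 6 lower, 5 of them without overlap, beside 17.2% of all genes, with a median of -0.18. Rspo3 had 19.8 and 17.5 CPM in the controls, 14.4 and 19.3 in the low libraries and 21.6 and 27.1 in the high libraries, a difference of 0.51 for high minus low (SE 0.15, adjusted p = 0.430). Without low 1 all 6 were still higher in high than in low, and the count at an unadjusted p under 0.05 went from 4 to 1, where all genes went from 7.91% to 3.41%.

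Among 14 other receptors 8 were higher and 6 lower in high than in low. Fzd10, a Frizzled gene of the streak, had 18.6 and 13.0 CPM in the controls, 5.25 and 12.9 in the low libraries and 20.7 and 18.7 in the high libraries, and low 1 was again the lowest. Fzd8, a Frizzled gene, had 16.3 and 21.1 CPM in the controls, 21.0 and 18.6 in the low libraries and 15.8 and 12.4 in the high libraries.

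Of 10 other secreted or membrane antagonists 8 were higher in high than in low and 2 lower. Of the 8, 7 did not overlap (beside 21.8% of all genes) and 4 had an unadjusted p under 0.05. Both lower genes did not overlap (beside 11.8% of all genes) and had such a p too. Of all genes, 7.91% had such a p in either direction. Shisa2, which keeps Frizzled receptors from the cell surface, had 33.2 and 35.2 CPM in the controls, 27.6 and 30.9 in the low libraries and 33.6 and 35.9 in the high libraries, a difference of 0.24 for high minus low (SE 0.08, limma adjusted p = 0.453). Dkk3, a relative of Dkk1, had 1.69 and 1.27 CPM in the controls, 0.942 and 1.37 in the low libraries and 1.73 and 2.10 in the high libraries, a difference of 0.44 (SE 0.15, adjusted p = 0.468). The 2 lower ones were Cer1 and Frzb. Cer1, a secreted antagonist made by the anterior endoderm whose Xenopus homologue binds Wnt, had 115 and 140.4 CPM in the controls, 127 and 102 in the low libraries and 87.6 and 80.0 in the high libraries. The difference was -0.44 for high minus low (SE 0.13) and -0.59 for high minus control (SE 0.13, adjusted p = 0.866). Frzb, a secreted protein that binds Wnt ligands, had 49.2 and 52.5 CPM in the controls, 56.7 and 55.2 in the low libraries and 44.6 and 42.3 in the high libraries. The high libraries of Cer1 and Frzb lay below all 4 others, as did those of Dkk1.

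The 17 other direct targets held the widest spread of all lists, from -0.78 to 3.10 for high minus low, with 11 higher and 6 lower. Cdx1, a caudal homeobox gene that Wnt3a activates directly, had 20.6 and 9.72 CPM in the controls, 2.56 and 7.54 in the low libraries and 51.7 and 41.2 in the high libraries. Its 3 groups did not overlap, and the difference was 3.10 for high minus low (SE 0.43, adjusted p = 0.233). Msgn1, a regulator of presomitic mesoderm, had 11.2 and 8.07 CPM in the controls, 0.721 and 6.59 in the low libraries and 17.6 and 15.1 in the high libraries. Mesp1, a regulator of nascent mesoderm that also stands among the streak markers, had 31.1 and 33.2 CPM in the controls, 58.8 and 50.7 in the low libraries and 31.4 and 31.2 in the high libraries. It differed by 0.75 for low minus control (SE 0.08, adjusted p = 0.254) and by -0.78 for high minus low (SE 0.08, adjusted p = 0.131). Sp5 and Mesp1 thus had their highest values in the low group, while Axin2, Cdx1 and Msgn1 had their lowest value in low 1.

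The 15 core genes other than Axin2 had a median of 0.03 for high minus low. Among them was Ctnnb1, which encodes beta-catenin and had 865 to 942 CPM over all 6 libraries. Of the 15, 0 had an unadjusted p under 0.05 in any comparison. Beside this stood 4.87%, 5.29% and 7.91% of all genes for low against control, high against control and high against low. The 11 nuclear factors other than Lef1 ranged from -0.28 to 0.39 for high minus low with a median of -0.04. Of these, 3 were higher and 8 lower, 5 of them lower without overlap (beside 11.8% of all genes). An unadjusted p under 0.05 was found for 2 of the 11, beside 7.91% of all genes. Among them Tcf7l2, a DNA-binding partner of beta-catenin, had 33.5 and 30.5 CPM in the controls, 30.9 and 31.1 in the low libraries and 26.3 and 24.5 in the high libraries.

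**Figure D3:**
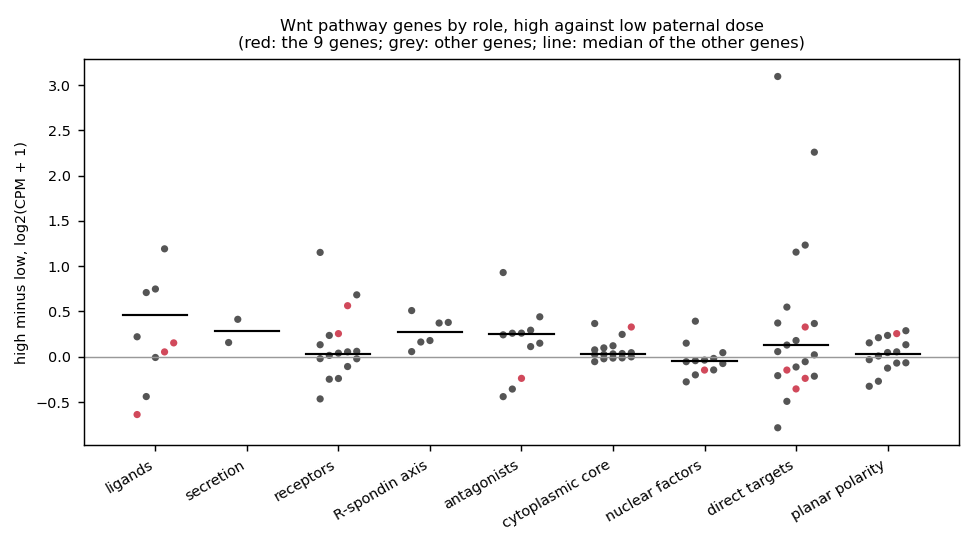
Difference in log2(CPM + 1) between the high and low groups for each measured gene of 9 Wnt pathway lists; red points are the 9 genes described here, grey points the 87 others (a gene in 2 lists is drawn in both), and black lines the medians of the others. All 6 R-spondin axis genes lie above 0, and the direct targets reach from -0.78 to 3.10.

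DNA methylation was lower near the gene start than elsewhere in 6 of the 9 genes, and no gene mean or tile passed the test between paternal groups. Sp5 was low in both places. Dkk1 had no tile elsewhere and Wnt5a no RefSeq start, so these genes could not be compared. Of the 167 tiles, 61 had a mean under 10%, 46 lay between 10% and 50%, and 60 were above 50%. In shares these were 36.5%, 27.5% and 35.9%, beside 38.9%, 22.2% and 38.8% of all tiles. Tiles within 1 kb of the start site had means of 3.49% to 16.7% in the 8 genes with a RefSeq start, with 33.0% in the highest tile. In Ror1 the 6 tiles there had a mean of 6.58% and the 7 others 77.0%. In Axin2 the means were 5.15% over 8 tiles and 57.6% over 13, in Lef1 9.89% over 4 and 55.6% over 27, and in Ror2 16.7% over 8 and 65.0% over 21. The Wnt3 tiles near the start had a mean of 8.80% and those of Wnt5b 3.49%, against 30.8% and 23.3% elsewhere.

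Sp5 was low throughout, with 9.42% over 6 tiles near the start and 8.72% over 5 others, and both Dkk1 tiles lay near the start with a mean of 4.66%. Wnt5a had 18 tiles with a mean of 24.2%, and its strand is not used here. The Ror1 promoter printed above overlapped 1 tile, with a mean of 0.711%. The Wnt3 promoter, with its motif just past the start site, overlapped 4 tiles. The Sp5 and Dkk1 windows overlapped none, so their motifs lay outside the measured tiles.

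**Figure D4:**
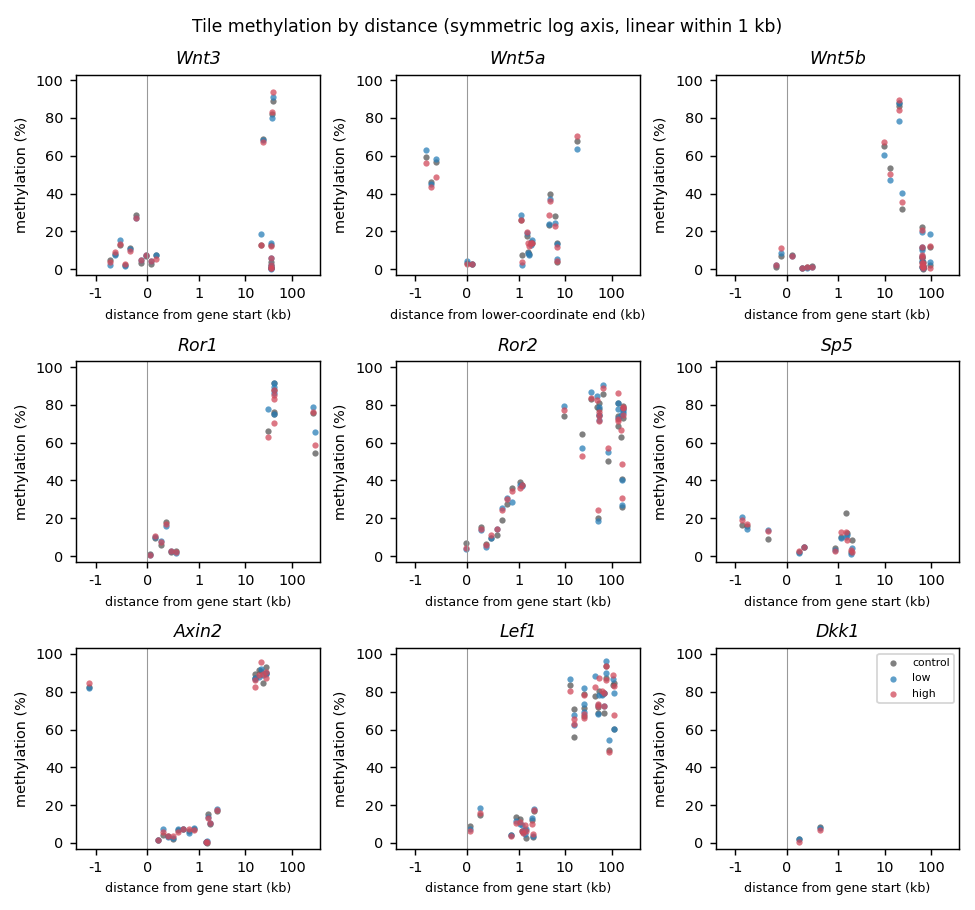
Percent methylation of each of the 167 tiles against distance from the gene start in kb (symmetric log axis, linear within 1 kb; for Wnt5a, distance from the lower-coordinate end of the gene); colours are group means of 3 libraries. Tiles within 1 kb of a RefSeq start lie at or below 33.0%, and tiles of Ror1, Ror2, Axin2 and Lef1 farther inside mostly lie above 50%.

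Averaged over its tiles, Ror1 had more methylation in the low group and Sp5 less, and neither passed the test. The Ror1 mean over 13 tiles was 43.6%, 42.8% and 44.3% in the controls, 45.5%, 48.4% and 45.6% in the low libraries and 43.9%, 41.1% and 45.5% in the high libraries. All low libraries stood above all controls, by 2.92 percentage points (SE 1.23, n = 3 per group, limma adjusted p = 0.907). The difference stayed between 1.98 and 3.40 when 1 library was left out. Over the 6 tiles within 1 kb of the start alone it was 0.0041 (SE 0.463). Of the 13 tiles 8 were higher and 5 lower in low than in control, with a median difference of 0.69 points. Of the higher ones, 2 described below each differed by more than the gene mean. The high libraries overlapped the controls and reached the lowest low library.

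Sp5 had a mean over 11 tiles of 10.3%, 9.73% and 9.31% in the controls, 8.70%, 8.70% and 8.26% in the low libraries and 9.42%, 8.40% and 9.07% in the high libraries. The low libraries lay below the controls by -1.24 percentage points (SE 0.467, limma adjusted p = 0.885). Over the 6 tiles within 1 kb of the start alone the difference had the opposite sign, 1.01 (SE 1.05). Dkk1, with 2 tiles, had 6.61%, 4.90% and 4.26% in the controls, 3.97%, 6.06% and 5.18% in the low libraries and 3.23%, 3.96% and 3.82% in the high libraries. The high libraries lay below the controls by -1.59 percentage points (SE 0.764, limma adjusted p = 0.9998) and below the low libraries by -1.40. Leaving out 1 library, these ranged from -2.09 to -0.91 and from -1.95 to -0.90.

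The libraries of the other 6 genes overlapped in every comparison. Non-overlap for low against control was thus found for 1 higher and 1 lower gene of 9, beside 5.3% and 4.46% of the 11889 genes with tiles. For high against control it was found for 0 higher genes and 1 lower gene, beside 5.42% and 3.63%. For high against low it was likewise found for 0 higher genes and 1 lower gene, beside 5.18% and 4.38%. With limma, 0 of 9 genes and 0.0% of all genes passed an adjusted p of 0.05 in each of the 3 comparisons. At an unadjusted p under 0.05 there were 2 of 9 for low against control (5.44% of all genes), 0 for high against control (4.05%) and 1 for high against low (4.76%).

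**Figure D5:**
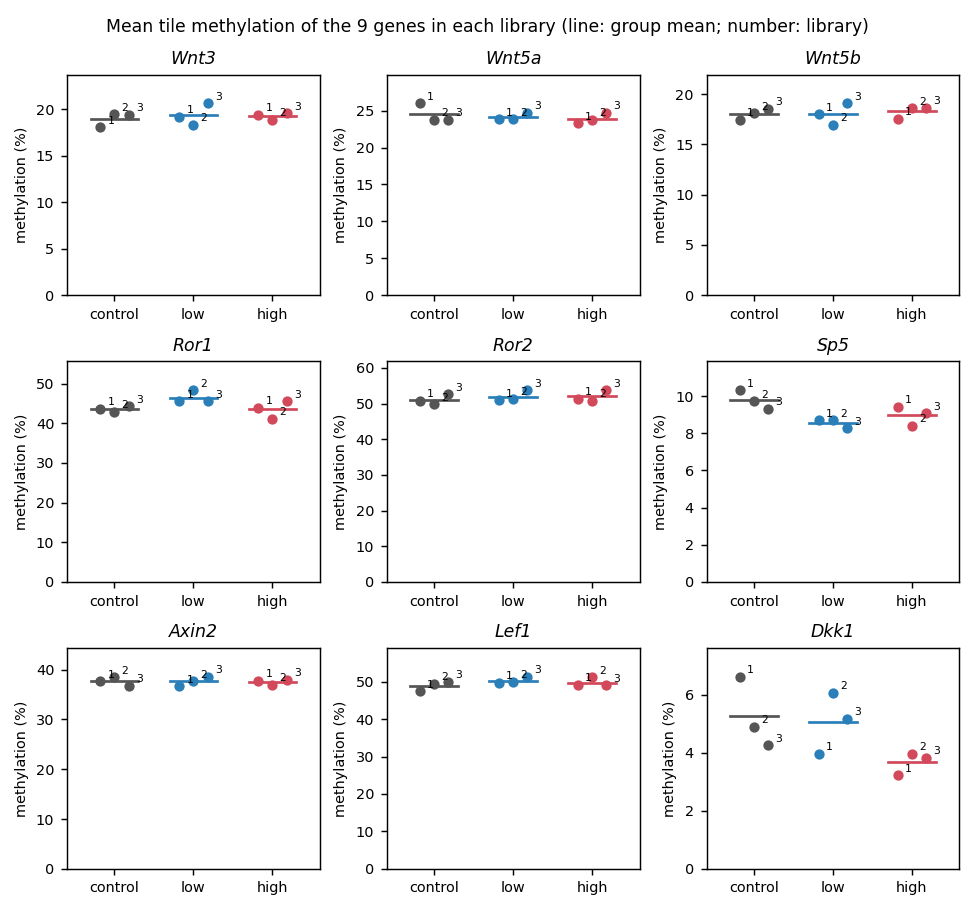
Mean percent methylation over the tiles of each of the 9 genes in the 9 RRBS libraries, by paternal group (axis from 0); points are libraries, numbers name the library within its group and lines are group means. The low libraries of Ror1, at 45.5% to 48.4%, lie above the controls at 42.8% to 44.3%.

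Single tiles were also tested. For low against control 10 of the 167 had an unadjusted p under 0.05 (5.99%), with 8 higher and 2 lower, beside 5.49% of all tiles. For high against control there were 4 (2.40%, beside 4.44%), and for high against low 6 (3.59%, beside 4.71%). With adjustment over all tiles 0 passed in any comparison, beside 0.0% of all tiles.

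The 3 tiles with the smallest p for low against control lay far inside the 2 Ror genes. The Ror2 tile at chr13:53128101-53128200, 157974 bp downstream of the start on the minus strand, had 62.3%, 60.2% and 66.0% in the controls, 74.4%, 75.9% and 74.3% in the low libraries and 68.8%, 67.5% and 64.4% in the high libraries. The difference was 12.1 percentage points (SE 1.72, limma adjusted p = 0.493), the low libraries stood above all 6 others, and the high libraries overlapped the controls. The Ror1 tile at chr4:100411901-100412000 had 50.9%, 56.5% and 56.6% in the controls, 69.2%, 65.0% and 63.0% in the low libraries and 57.9%, 56.4% and 61.6% in the high libraries, a difference of 11.1 points (SE 2.35, adjusted p = 0.712). A second Ror1 tile, at chr4:100136901-100137000, had 76.1%, 78.4% and 74.5% in the controls, 93.7%, 93.1% and 88.7% in the low libraries and 85.8%, 75.5% and 88.4% in the high libraries, a difference of 15.5 points (SE 3.33, adjusted p = 0.717).

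For high against control the smallest p was that of a Sp5 tile at chr2:70476401-70476500, downstream of the start. It had 10.4%, 13.6% and 12.9% in the controls, 10.7%, 11.7% and 10.6% in the low libraries and 7.50%, 8.54% and 9.78% in the high libraries, a difference of -3.69 points (SE 1.05, limma adjusted p = 1). A tile upstream of Axin2 at chr11:108918901-108919000 differed by 2.39 points in the same comparison (SE 0.896, adjusted p = 1). Ror1 was the 1 gene of the 9 whose low libraries lay below both controls in CPM, and its low libraries lay above all controls in mean methylation. Sp5 had the reverse, with low libraries above both controls in CPM and below all controls in mean methylation. Other genes did not pair in this way. The low libraries of Wnt3 also lay above both controls in CPM, but in mean methylation they overlapped the controls (0.41 points, SE 0.69). The high libraries of Dkk1 lay below all controls in both CPM and mean methylation. Whether expression and methylation are linked was not tested, since libraries of the tables cannot be matched.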

How the data were processed

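RNA libraries (6) and RRBS libraries (9) were read from 1 table each, and their treatment was taken from column names. The authors deposited expression as CPM (the file headers say so), of which 3 lines without a gene took 27.9 to 29.8%. The authors deposited methylation as percent per tile of 100 bp. Coverage is not given, so the depth behind a tile is unknown. Tools named without a role, per the submitters' processing notes, are TopHat, Bowtie 0.12.2, SAMtools, edgeR, Bismark, Bowtie2, Trim Galore and methylKit, with the builds mm8 and mm10. Gene and tile coordinates fitted GRCm38: all 11776 tiles within its promoter windows held a CG (100%), against 82.4 to 85.5% after shifts. CPM values were whole multiples of 1 step per library (100% within 0.01), but their scale is not given, so steps are a relative depth and no count model was used.

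The 12987 of 12988 genes that reached 1 CPM in 2 libraries were fitted on log2(CPM + 1). The tool was limma 3.58.1 (R 4.3.3) with a trend and all 3 groups fitted jointly, which leaves 3 degrees of freedom. Fold changes on this scale understate changes of low genes. Percent methylation was fitted with limma without a trend (6 degrees of freedom), per tile and as the mean over the tiles of a gene, and p-values were adjusted by Benjamini-Hochberg over all features. The code was tested on simulated data. The labels do not say whether libraries came from separate litters, so p-values measure the spread between these libraries, which may be technical.

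The 9 genes and the pathway lists were chosen with earlier results of these data known. Text names all 9 genes, tiles with the smallest p, the 3 profiles most like those of the 3 most variable genes (1 of them is not reported here), and pathway genes among the 4 with the smallest p of their list and with an unadjusted p under 0.05 in some comparison, and Ctnnb1 was added after its values were seen. Sequences are RefSeq's, on GRCm38.p6, matched by symbol for 8 of the 9 genes. Alternatives changed the pseudocount (0.1 or 5), filter, scaling, trend, groups in the fit, replicate block and tile windows, or left out each library. Samples of the labels beyond these 15 libraries were not analysed here.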

Additional observations from a re-analysis of the deposited data

How the results depend on the processing

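The counts of features past an adjusted p of 0.05 over the whole tables were small and moved with the setting. For expression, low against control gave 0 genes and, leaving out 1 library, 0 to 65 (65 without low 2, 10 without control 2, 1 without control 1). High against control gave 1 gene, Gm23935, and 0 without a trend, 2 with only the 2 groups in the fit and 0 to 2 leaving out 1 library. High against low gave 0 genes, 9 with only the 2 groups in the fit and 0 to 291 leaving out 1 library (291 without low 2). For tiles, low against control gave 0, 1 on the logit scale, 1 with a trend and 0 to 1 leaving out 1 library. High against control gave 0, 2 with a trend and 0 to 1 leaving out 1 library, and high against low gave 0, 1 on the logit scale and 2 with a trend. For gene means, tiles between 5 and 95% gave 2 for low against control and 1 for high against low instead of 0, and leaving out 1 library gave 0 to 1 for either dose against control. The cause was not tested. Libraries of the same number showed little common deviation (r from -0.073 to 0.09 for expression, -0.033 to 0.029 for methylation). With so few libraries per group, whether the numbers mark a shared litter or batch is not known. With the replicate block, high against control gave 0 genes (lowest adjusted p = 0.0558) and no other call changed.

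None of the 9 genes passed in methylation, by tile or gene mean, under any alternative run, and in expression they passed only without low 2. Expression differences of the 9 genes had another sign in 5, 7 and 2 of 126 alternative values each for low against control, high against control and high against low, and gene means in 17, 13 and 12 of 134. Sp5, Wnt3, Ror1, Ror2 and Axin2 kept their sign in low against control under all 14 alternatives. Quantile normalization moved the split of all genes at an unadjusted p under 0.05 from 474 higher and 213 lower to 358 and 331 for high against control, and from 739 and 288 to 555 and 411 for high against low. No coverage minimum could be tried, and Wnt5a has no value for tiles within 1 kb of the start. With 2 libraries per group and unknown tile depth, small differences were not detectable.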

Other observations

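The planar polarity list, of genes that act in cell polarity, had 14 measured genes besides Ror2. The list was divided in high against low, with 8 higher and 6 lower and a median of 0.03. Prickle1, a core polarity gene, had 45.0 and 40.8 CPM in the controls, 56.9 and 51.4 in the low libraries and 42.2 and 43.7 in the high libraries, so that both low libraries stood above all others as for Sp5. It differed by 0.33 for low minus control (SE 0.08, limma adjusted p = 0.928). Celsr1, a polarity cadherin, ran the other way as Ror1 did, with 37.7 and 39.3 CPM in the controls, 32.4 and 34.6 in the low libraries and 42.0 and 40.2 in the high libraries, a difference of 0.29 for high minus low (SE 0.07, adjusted p = 0.315). Ptk7, a polarity receptor, had 246 and 237 CPM in the controls, 203 and 240.4 in the low libraries and 266 and 255 in the high libraries, with low 1 the lowest.

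The Wnt5b tile at chr6:119449401-119449500 lay in the window of the internal start site that holds the TCF/LEF match. It had 14.3%, 7.69% and 12.6% methylation in the controls, 18.5%, 15.9% and 20.9% in the low libraries and 7.78%, 16.7% and 12% in the high libraries. The low libraries stood above all controls by 6.91 percentage points (SE 2.71, limma adjusted p = 0.896), and the CPM of Wnt5b overlapped between low and control.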
